A study of Homo sapiens with 8 samples.

Results

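Genomic imprinting keeps 1 parental copy of a gene silent through DNA methylation laid down in the germ line, so that the gene is read from the other copy only. Imprinted genes lie in clusters that share control regions, and many of them act on growth, placenta formation and metabolism: as a rule, paternally expressed members such as MEST, PEG10, PEG3, DLK1 and IGF2 favour growth, and maternally expressed members such as H19, MEG3 and CDKN1C hold it back. In tumours and in cultured cells the dosage of these genes often drifts when the methylation of a control region is lost or spreads.

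The 10 imprinted genes described here are MEST, PEG10, PEG3, DLK1, MEG3, H19, IGF2, NNAT, GRB10 and CDKN1C. They were chosen by name, and each gene name was matched to the gene column of the array, which gave 18 probes for the 10 genes, of 50599 probes and 36337 gene names in all. The list is built around MEST, which is among the genes that the study selected on these same arrays as lower with miR-375 in one line and higher with its inhibitor in the other, so the behaviour of MEST is not independent evidence for either direction.

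RNA was measured on 8 one-colour Agilent arrays, 2 in each of 4 groups. Nthy-ori 3-1, a single immortalized line of normal thyroid follicular cells, was transfected at 5 nM with a control (ORI_CTL) or with premiR-375, a synthetic precursor of the miRNA (ORI_premiR-375), and TT, a single line from a medullary thyroid carcinoma that carries an activating RET change, was transfected at 20 nM with a control (TT_CTL) or with an antagomiR, an antisense inhibitor of miR-375 (TT_AntagomiR-375). Both lines were harvested after 48 h, no animal was involved, and the labels name no other genetic change. The labels name both controls CTL without the reagent, and the methods call the replicates biological without saying how cultures were set up, so p-values measure the spread between these arrays. With 2 arrays a group, an exact two-sided permutation test of a single value cannot give a p under 0.333, and values below are given array by array.

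The precursor and its inhibitor act through the mature miRNA, which is shown because its seed, the bases 2 to 8 in capitals, is what pairs with a target. It lies at chr2:219001648-219001669 on the minus strand of GRCh38.p14 and was read from RefSeq. The array holds 0 probes for the miRNA itself, so neither transfection could be checked on it.
hsa-miR-375-3p: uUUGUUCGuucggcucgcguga

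On each array 32071 to 37340 of 58717 spots were well above background, a term for spots whose signal exceeds that of their surroundings by a set margin, and 0 spots were saturated. The labels give an RNA integrity number of 8 on both TT_CTL arrays and of 9 on the others, so RNA integrity and the antagomiR cannot be told apart in TT cells. The 7 measured markers of C cells, the calcitonin cells from which medullary carcinoma arises, were well above background on every TT array (CALCA, calcitonin, 18.5 to 18.6 on the log2 scale). Of the 7 follicular markers, PAX8 (10.3 to 10.7) and FOXE1 (8.28 to 8.80) were bright in Nthy-ori 3-1 cells, but NKX2-1 and TSHR were not well above background there, and thyroglobulin (TG) was higher in TT by 4.26 (log2, SE 0.21, adjusted p = 0.000455), so the follicular label is borne out by part of its markers. On the 2 ORI_premiR-375 arrays 6 of 7 C cell markers were well above background, against 1 of 7 on each ORI_CTL array, and the summed level of the list was 8.97 and 8.42 against 7.26 and 6.87 (log2 of the summed signals). In bulk RNA fewer cells of a type and less RNA per cell cannot be told apart. Of the other marker lists, 3 of 3 leukocyte and 2 of 3 endothelial markers were well above background on every Nthy-ori 3-1 array, as were 1 to 3 of 4 fibroblast markers, among them COL1A1 at 13.4 to 14.8. PDGFRA was not well above background on any Nthy-ori 3-1 array, nor COL1A2 on either ORI_CTL array. On every TT array 3 of 3 leukocyte, 3 of 3 endothelial and 2 to 3 of 4 fibroblast markers were well above background, PDGFRA and LUM among the last.

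MEST, which encodes an enzyme of the hydrolase fold family and is read from the paternal copy, was the member with the largest decrease under pre-miR-375. Its normalized log2 signal was 10.74 and 10.66 on the 2 ORI_CTL arrays and 8.47 and 8.70 on the 2 ORI_premiR-375 arrays. Both treated arrays lay below both controls, and the gap was wider than the spread within either group. The fitted difference was -2.11 (log2, SE 0.14), a 4.31-fold lower signal, with -2.27 on the slide of replicate 1 and -1.95 on that of replicate 2. Its unadjusted p was 0.000484 and its adjusted p 0.0785 in limma's moderated test with Benjamini-Hochberg adjustment over 27722 probes, so it missed the threshold of 0.05. No probe of the array passed in this comparison (0% of 27722), although 26.8% had an unadjusted p under 0.05. The fit of each line has 1 residual degree of freedom.

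The call for MEST depended on the setting. With probes well above background on all 4 arrays, its adjusted p was 0.0153 and 10.9% of 24192 probes were called. MEST was called under 6 of 13 alternatives in all, and its log2 difference stayed between -2.27 and -1.94.

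In TT cells MEST stood the other way. Its log2 signal was 10.65 and 10.66 on the TT_CTL arrays and 11.31 and 11.51 on the TT_AntagomiR-375 arrays, without overlap. The difference was 0.75 (log2, SE 0.12), or 1.69-fold, and 0.66 and 0.84 on the 2 slides. The unadjusted p was 0.00854 and the adjusted p 0.341 over 30299 probes, of which 0% were called and 13.7% had an unadjusted p under 0.05. It passed the threshold under 1 of 13 alternatives, a prior variance with a trend (adjusted p = 0.0162). Between the control arrays of the lines, TT_CTL minus ORI_CTL was -0.04 (log2, SE 0.18, adjusted p = 0.877) for MEST.

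MEST is read by 1 probe, at chr7:130145648-130145707 on the plus strand of hg19, which the array design assigns to 3 RefSeq transcripts, so the signal does not separate the starts of the gene. RefSeq holds 5 start windows for MEST on GRCh38.p14, in an upstream group and a downstream group, and the window with the most CG dinucleotides of each group is shown because imprints are written on CG sites. Each covers the 300 bases around a start, CG in capitals. The upstream window (chr7:130486097-130486396, plus strand) holds 22 CG and the downstream one (chr7:130491835-130492134, plus strand) 25, against a median of 14 over 35116 windows of 300 bases, of which 37.7% and 32.0% hold at least as many and 96.0% hold any. Methylation was not measured here.
MEST upstream start: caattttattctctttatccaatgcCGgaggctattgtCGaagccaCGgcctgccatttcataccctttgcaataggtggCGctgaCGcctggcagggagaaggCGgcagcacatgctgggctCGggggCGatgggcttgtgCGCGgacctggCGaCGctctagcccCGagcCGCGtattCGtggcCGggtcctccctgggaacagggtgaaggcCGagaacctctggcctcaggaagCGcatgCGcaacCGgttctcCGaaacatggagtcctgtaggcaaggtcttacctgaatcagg
MEST downstream start: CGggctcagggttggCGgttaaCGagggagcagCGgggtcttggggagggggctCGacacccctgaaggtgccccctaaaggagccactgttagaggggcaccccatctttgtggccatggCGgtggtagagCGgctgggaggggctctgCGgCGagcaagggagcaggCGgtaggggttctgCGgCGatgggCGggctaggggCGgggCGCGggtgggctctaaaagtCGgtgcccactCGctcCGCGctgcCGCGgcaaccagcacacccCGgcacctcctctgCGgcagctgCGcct

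**Figure D1:**
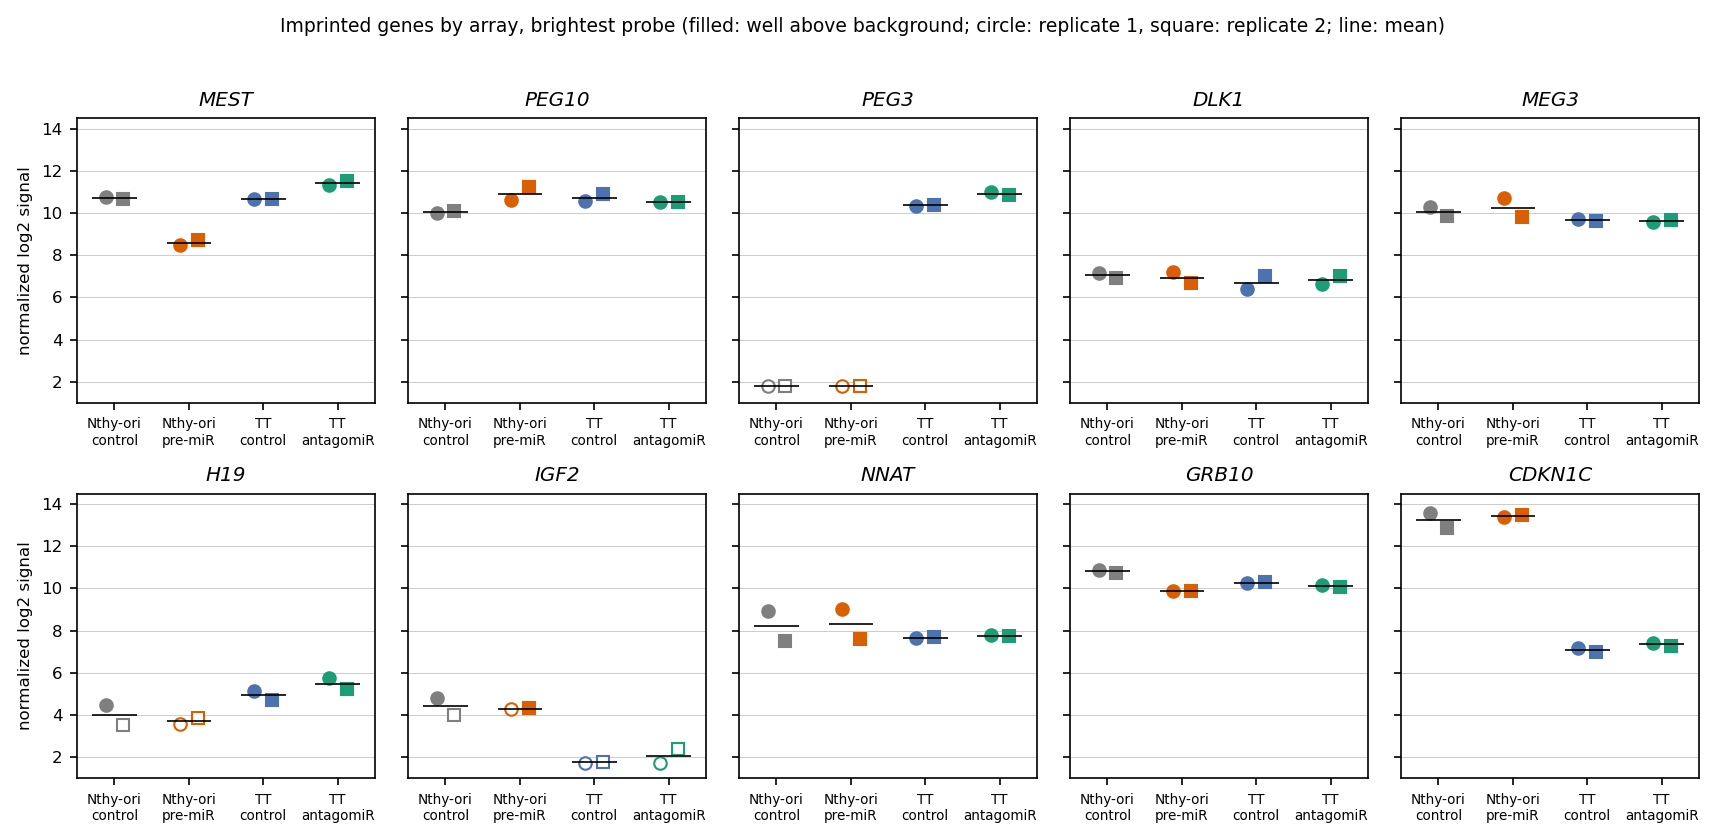
Normalized log2 signal (y axis) of the brightest probe of each of the 10 imprinted genes in the 4 groups (x axis), with 1 point per array and a line at the mean of 2 arrays; open symbols are not well above background. MEST drops from 10.7 to 8.6 with pre-miR-375, CDKN1C lies at 12.9 to 13.6 in Nthy-ori 3-1 and 7.0 to 7.4 in TT, and PEG3 is above background in TT cells only.

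COPG2, a neighbour of MEST that encodes a subunit of the coat of Golgi vesicles, was lower with pre-miR-375 as well. Its log2 signal was 9.68 and 9.14 on the ORI_CTL arrays and 8.42 and 7.99 on the ORI_premiR-375 arrays, a difference of -1.20 (SE 0.12, adjusted p = 0.0785, and 0.0205 among probes above background on all 4 arrays). In TT cells COPG2 did not follow MEST, with a difference of -0.14 (SE 0.11, adjusted p = 0.597) that lay below 0 on both slides. CPA4, a carboxypeptidase gene of the same cluster, differed by -1.17 in Nthy-ori 3-1 (SE 0.19, adjusted p = 0.0953, and 0.0340 in the smaller set) and by 0.74 in TT (SE 0.15, adjusted p = 0.341). CPA4 replicates differed more than its groups did, at 6.49 and 8.14 on the ORI_CTL arrays and 5.05 and 7.25 on the treated ones, so the groups overlap and the difference shows only within slides. MESTIT1 and COPG2IT1, transcripts from within MEST and COPG2, were well above background on 2 and 4 of 8 arrays, and KLF14, a transcription factor gene, differed by 0.39 (SE 0.12, adjusted p = 0.166) in Nthy-ori 3-1 cells.

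GRB10 encodes an adaptor that binds the insulin and IGF1 receptors and dampens their signal. Both of its probes gave the same picture in Nthy-ori 3-1 cells. The probe at chr7:50657813-50657872 of hg19 (minus strand) read 10.88 and 10.74 on the ORI_CTL arrays and 9.89 and 9.86 on the treated ones, and the probe at chr7:50657752-50657786, which has 10 spots per array, read 10.94 and 10.82 against 9.90 and 9.86. Treated and control arrays did not overlap for either probe, and the 2 treated arrays lay within 0.05 of each other. The log2 differences were -0.93 (SE 0.12, adjusted p = 0.0837) and -1.0 (SE 0.12, adjusted p = 0.0827), and each probe was called under 6 of 13 alternatives, with adjusted p of 0.0266 and 0.0245 among probes above background on all 4 arrays. In TT cells the antagomiR left GRB10 at -0.15 (SE 0.12, adjusted p = 0.591) and 0.10 (SE 0.11, adjusted p = 0.688).

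PEG10, derived from a retroviral gag gene and needed for the placenta, was higher with pre-miR-375 on both slides of Nthy-ori 3-1 cells. Its log2 signal was 9.99 and 10.11 on the ORI_CTL arrays and 10.60 and 11.23 on the ORI_premiR-375 arrays, without overlap. The difference was 0.86 (log2, SE 0.18, adjusted p = 0.118), with 0.61 and 1.12 on the 2 slides, and it was called under 4 of 13 alternatives. In TT cells it was -0.20 (SE 0.15, adjusted p = 0.563). SGCE, a sarcoglycan gene that shares its control region and start with PEG10, differed by 0.15 (SE 0.12, adjusted p = 0.452) in Nthy-ori 3-1 cells and -0.17 (adjusted p = 0.539) in TT cells, and the difference between the 2 genes was not tested.

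PEG3, a zinc finger gene read from the paternal copy, has 2 probes that disagree, although the array design assigns both to the same 4 RefSeq transcripts. The brighter one, at chr19:57324385-57324444 of hg19 (minus strand), was not well above background on any Nthy-ori 3-1 array (1.79 to 1.82), whereas the dimmer one, at chr19:57325707-57325766 (minus strand), read 3.40 and 3.88 on the ORI_CTL arrays, not well above background, and 7.39 and 5.31 on the ORI_premiR-375 arrays. Against the lowest signal well above background, the dimmer probe was at least 3.99-fold higher with pre-miR-375 in the main setting (log2 difference 2.71, SE 0.72, adjusted p = 0.149). This bound did not hold in every setting, as the log2 difference was 1.20 with the deposited values. The probe had passed the filter through the treated arrays alone. The same 2 arrays had 6 of 7 C cell markers well above background, and the part of these in the PEG3 value was not tested. DDC at the GRB10 locus, bright in TT cells, was at 1.71 to 1.73 and the brighter PEG3 probe at background on all Nthy-ori 3-1 arrays. CALCA read 3.91 and 3.57 on the ORI_CTL arrays and 8.12 and 4.51 on the ORI_premiR-375 arrays, and SYP 1.91 and 2.11 against 5.49 and 6.15. The cause of these values was not tested.

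In TT cells the 2 PEG3 probes also ran apart. The brighter probe read 10.33 and 10.40 on the TT_CTL arrays and 10.99 and 10.85 on the TT_AntagomiR-375 arrays, a log2 difference of 0.56 (SE 0.12, adjusted p = 0.343). The dimmer one read 5.58 and 5.69 against 5.24 and 4.63, a difference of -0.70 (SE 0.24, adjusted p = 0.380). ZIM2, a zinc finger gene that shares its start region with PEG3, followed the brighter probe with 0.54 (SE 0.13, adjusted p = 0.348), from 7.54 and 7.81 to 8.21 and 8.22.

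H19, a maternally expressed non-coding RNA, was higher with the antagomiR at both of its probes. The probe at chr11:2016961-2017020 of hg19 (minus strand) read 5.16 and 4.70 on the TT_CTL arrays and 5.75 and 5.21 on the treated ones, and the probe at chr11:2016674-2016733 read 5.30 and 4.65 against 6.08 and 5.64. The differences were 0.55 (log2, SE 0.11) and 0.89 (log2, SE 0.12), both with an adjusted p of 0.341. With the deposited log2 values, which carry no background correction, they were 0.22 and 0.42. In Nthy-ori 3-1 cells H19 was well above background on 1 of 4 arrays at the first probe and 0 of 4 at the second, so it was not tested there. IGF2, the growth factor that shares enhancers with H19, was well above background on 2 of 8 arrays at 1 probe and 1 of 8 at the other, with no signal above background in TT cells; the 1 test it allowed gave -0.10 (SE 0.26, adjusted p = 0.839) in Nthy-ori 3-1 cells.

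DLK1, a membrane protein of the Notch ligand kind that holds precursor cells undifferentiated, differed by -0.11 (log2, SE 0.14, adjusted p = 0.663) with pre-miR-375 and 0.11 (SE 0.13, adjusted p = 0.693) with the antagomiR at its brighter probe. Its dimmer probe, at chr14:101201048-101201107 of hg19 beside chr14:101200586-101200645 for the brighter one, was well above background on 3 of 8 arrays and differed by -1.01 (SE 0.50, adjusted p = 0.456) with the antagomiR. CDKN1C, an inhibitor of cyclin-dependent kinases, differed by 0.21 (SE 0.24, adjusted p = 0.624), with -0.18 on one slide and 0.59 on the other, and by 0.26 (SE 0.11, adjusted p = 0.417). NNAT, a small membrane protein of brain and endocrine cells, differed by 0.10 (SE 0.11, adjusted p = 0.618) and 0.08 (SE 0.11, adjusted p = 0.760). NNAT differed more between slides than between treatments in Nthy-ori 3-1 cells, as it read 8.94 and 9.02 on the 2 arrays of slide 1 and 7.5 and 7.61 on those of slide 2, a gap of 1.43 and 1.41 within the groups. In TT cells its 4 arrays lay between 7.64 and 7.77. PHLDA2, a growth-limiting neighbour of CDKN1C read from the maternal copy, differed by -0.73 (SE 0.11, adjusted p = 0.0924, and 0.0357 among probes above background on all 4 arrays) with pre-miR-375 and by 0.61 (SE 0.11, adjusted p = 0.341) with the antagomiR.

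**Figure D2:**
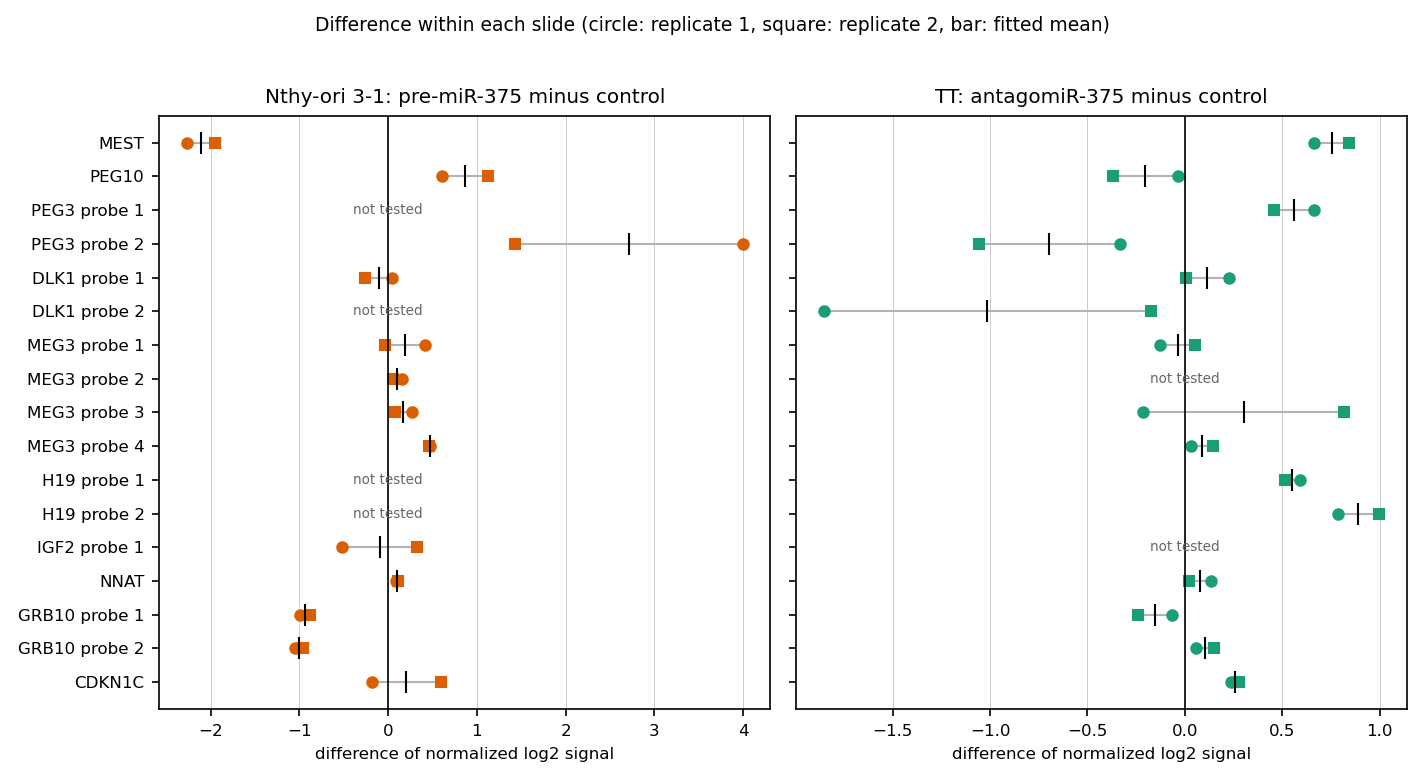
Difference of normalized log2 signal (x axis) between the treated and the control array of the same slide, for each member probe tested in a line, with MEG3 probes in order of position and other probes by brightness; the 2 panels have different scales. MEST is at -2.27 and -1.95 in Nthy-ori 3-1 and at 0.66 and 0.84 in TT, both GRB10 probes are near -1 in Nthy-ori 3-1, and H19 is above 0 on both slides of TT.

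Counted over probes, the pre-miR-375 comparison put 6 of 13 member probes under an unadjusted p of 0.05 (1 of MEST, 1 of PEG10, 1 of PEG3, 1 of MEG3 and 2 of GRB10), beside 26.8% of all probes. The PEG3 probe had passed the filter through the treated arrays alone, so its place in this count was set by the filter. In TT cells 4 of 15 did (1 of MEST, 1 of PEG3 and 2 of H19), beside 13.7% of all. MEST was selected on these same arrays for both changes, so its place in both counts is not independent evidence. The median log2 difference of the 13 probes was 0.10 in Nthy-ori 3-1, where that of all probes was 0.02, and the median of the 15 was 0.10 in TT, where that of all was -0.01. The 2 comparisons share no array.

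The control arrays of the 2 lines were then set against each other, which shows how far the lines differ in these genes before miR-375 is changed. Line, control reagent, concentration and slide cannot be told apart in this comparison, and the control arrays are those of the comparisons above. Of 31067 probes, 45.5% were called at an adjusted p of 0.05, 22.7% higher and 22.8% lower in TT. With the deposited values, which shift the median of all probes by -0.32 on the log2 scale, 5281 were called higher and 11150 lower. Of 16 member probes tested 6 were called, 2 higher (both of PEG3) and 4 lower in TT (2 of MEG3, 1 of GRB10 and the CDKN1C probe), which is 4 of 9 genes tested, beside the 45.5% of all probes. Both PEG3 probes, 1 MEG3 probe, the dimmer DLK1 probe and the H19 probe at chr11:2016674-2016733 passed the filter through one line alone. So did every gene given below as a bound, and the counts between the lines are descriptions. The bounds hold for the main setting. With the deposited values some differences were smaller, such as 4.56 (log2) for the brighter PEG3 probe.

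CDKN1C had the largest decrease of the members. Its log2 signal was 13.57 and 12.88 on the ORI_CTL arrays and 7.20 and 7.0 on the TT_CTL arrays, a difference of -6.12 (log2, SE 0.30, adjusted p = 0.000481), or 69.7-fold lower in TT. It was called under all 14 alternatives, with -6.47 to -5.58. Its neighbours gave smaller or opposite values: PHLDA2 differed by 0.35 (SE 0.20, adjusted p = 0.224) and SLC22A18, a transporter gene, by 0.44 (adjusted p = 0.245), while OSBPL5, an oxysterol-binding protein gene, was higher in TT by 0.97 (adjusted p = 0.0198, lost with the deposited values at 0.51 and 0.0523 and without either TT_CTL array, and at most 0.141 over the alternatives), and KCNQ1OT1, the non-coding RNA of the control region, ran from 3.24 to 6.5 over the 4 control arrays (log2 difference -1.43, SE 0.91, adjusted p = 0.269).

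PEG3 and its neighbours were on in TT. The brighter PEG3 probe, at 10.33 and 10.40 there and not well above background in Nthy-ori 3-1, was at least 64.3-fold higher in TT (log2 difference 8.56, adjusted p = 0.00017), and the dimmer one at least 2.42-fold (log2 1.99, adjusted p = 0.00518), a call that was lost with the deposited values (0.38, adjusted p = 0.0776), with slide as a random block (adjusted p = 0.147) and without replicate 2 of TT_CTL (adjusted p = 0.0543). ZIM2 was at least 9.97-fold higher, at 7.54 and 7.81 in TT_CTL, and MIMT1, a non-coding RNA of the same domain, at least 12.0-fold, at 8.09 and 7.78. USP29, also of the domain, was well above background on 0 of 8 arrays. PEG3, ZIM2 and MIMT1 were not well above background on either ORI_CTL array.

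MEG3, a maternally expressed long non-coding RNA with growth-limiting effects, was called lower in TT at 2 of its 4 probes and not called at the others. Their sequences are shown because these probes of 1 gene differ in the size of the line difference. The part of their position, brightness or quality in that was not tested. All lie on the plus strand of chromosome 14 in hg19, at chr14:101295974-101296033 (probe 1), chr14:101297360-101297419 (probe 2), chr14:101325072-101325131 (probe 3) and chr14:101327286-101327345 (probe 4). Capitals mark the polyadenylation signal AATAAA, which was searched on the strand of the probe and is held by probe 4 and by 7.88% of all 50599 probes.
MEG3 probe 1: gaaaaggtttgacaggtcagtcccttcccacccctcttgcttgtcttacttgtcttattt
MEG3 probe 2: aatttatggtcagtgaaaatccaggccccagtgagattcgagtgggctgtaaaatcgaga
MEG3 probe 3: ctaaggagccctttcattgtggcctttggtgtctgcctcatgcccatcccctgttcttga
MEG3 probe 4: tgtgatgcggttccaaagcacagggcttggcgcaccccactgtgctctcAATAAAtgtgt

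Probe 4 read 11.01 and 10.85 on the ORI_CTL arrays and 7.76 and 8.04 on the TT_CTL arrays, a difference of -3.03 (log2, SE 0.21, adjusted p = 0.00109), 8.18-fold lower in TT and called under all 14 alternatives. Probe 2 was dim, at 4.84 and 5.09 in ORI_CTL and not well above background in TT, where it was at least 2.97-fold lower (adjusted p = 0.00858), a call lost with normexp (adjusted p = 0.0508), with the median signal (adjusted p = 0.0843) and without replicate 2 of TT_CTL (adjusted p = 0.0501). Probe 1 fell short, with 10.29 and 9.84 against 9.70 and 9.61 (log2 difference -0.41, SE 0.24, adjusted p = 0.234), and was called with the deposited values (-0.68, adjusted p = 0.0266). Probe 3, which the design takes from a single cDNA clone and no RefSeq transcript, read 8.04 and 7.61 against 8.16 and 8.01, a difference of 0.26 (SE 0.24, adjusted p = 0.427). The log2 differences thus spanned 3.29 between probes of 1 gene, while with pre-miR-375 the 4 probes lay between 0.10 and 0.47, the latter at probe 4 (SE 0.11, adjusted p = 0.136, called under 3 of 13 alternatives). With the antagomiR the 3 MEG3 probes tested lay between -0.04 and 0.30. MEG8, a non-coding RNA downstream of MEG3, was lower in TT (log2 difference -1.30, adjusted p = 0.0139), a call made under 9 of 13 alternatives and lost with normexp, with the median signal and without either TT_CTL array (-1.49 to -0.36, adjusted p up to 0.111), whereas DLK1 at the other end of the cluster differed by -0.34 (SE 0.28, adjusted p = 0.383), and RTL1, DIO3 and DIO3OS were not above background on enough control arrays to be tested.

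**Figure D3:**
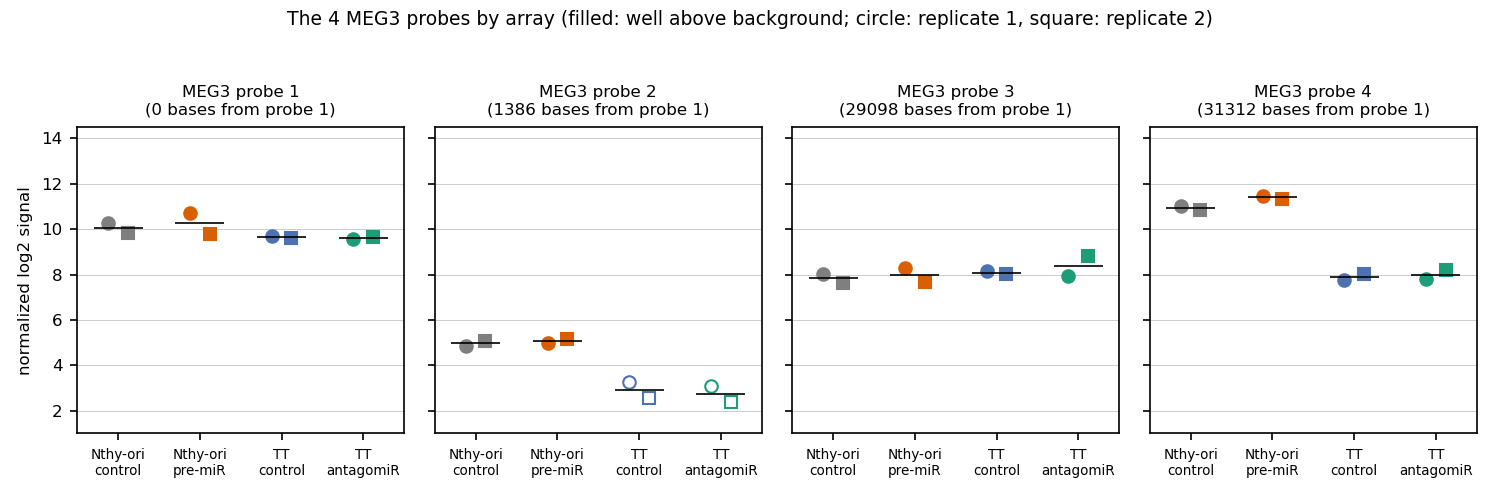
Normalized log2 signal (y axis) of the 4 MEG3 probes, in order of position along the gene, in the 4 groups (x axis), with 1 point per array and a line at the mean; open symbols are not well above background. Probe 4 lies near 11 in Nthy-ori 3-1 and near 8 in TT, probes 1 and 3 lie close in both lines, and probe 2 is above background in Nthy-ori 3-1 only.

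GRB10 was lower in TT at the probe with 10 spots, with 10.94 and 10.82 against 9.34 and 9.16 (log2 difference -1.63, SE 0.19, adjusted p = 0.00451, lost without replicate 2 of TT_CTL at 0.0559). Its other probe differed by -0.53 (SE 0.19, adjusted p = 0.0859), called under 5 of 14 alternatives, so the 2 probes share a direction and not a size. The genes beside GRB10 ran the opposite way: DDC, the enzyme that makes dopamine and serotonin from their precursors, was at 14.6 and 14.8 in TT_CTL and at background in ORI_CTL, at least 1276-fold higher (adjusted p = 0.00017), and COBL, an actin nucleator, was at least 48.4-fold higher.

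Of the remaining members, PEG10 was 0.68 higher in TT (log2, SE 0.21, adjusted p = 0.0637, called under 3 of 14 alternatives), beside TFPI2, a protease inhibitor gene of its cluster, which at 11.6 and 11.7 in ORI_CTL was at least 305-fold lower in TT, and PPP1R9A, a neurabin gene, which was higher by 2.42 (adjusted p = 0.00183). NNAT differed by -0.55 (SE 0.53, adjusted p = 0.445) and by -1.27 without replicate 2 of ORI_CTL (adjusted p = 0.0179). H19 was higher in TT by 0.92 (SE 0.41, adjusted p = 0.139) at its first probe, called under 1 of 13 alternatives, and differed by -0.01 with the deposited values. Its second probe was not well above background on either ORI_CTL array and was at least 1.53-fold higher in TT. Its fitted difference of 2.26 (SE 0.69, adjusted p = 0.0604, called under 5 of 13 alternatives) rests on background signal, and with the deposited values it was 0.19. IGF2 was not tested.

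**Figure D4:**
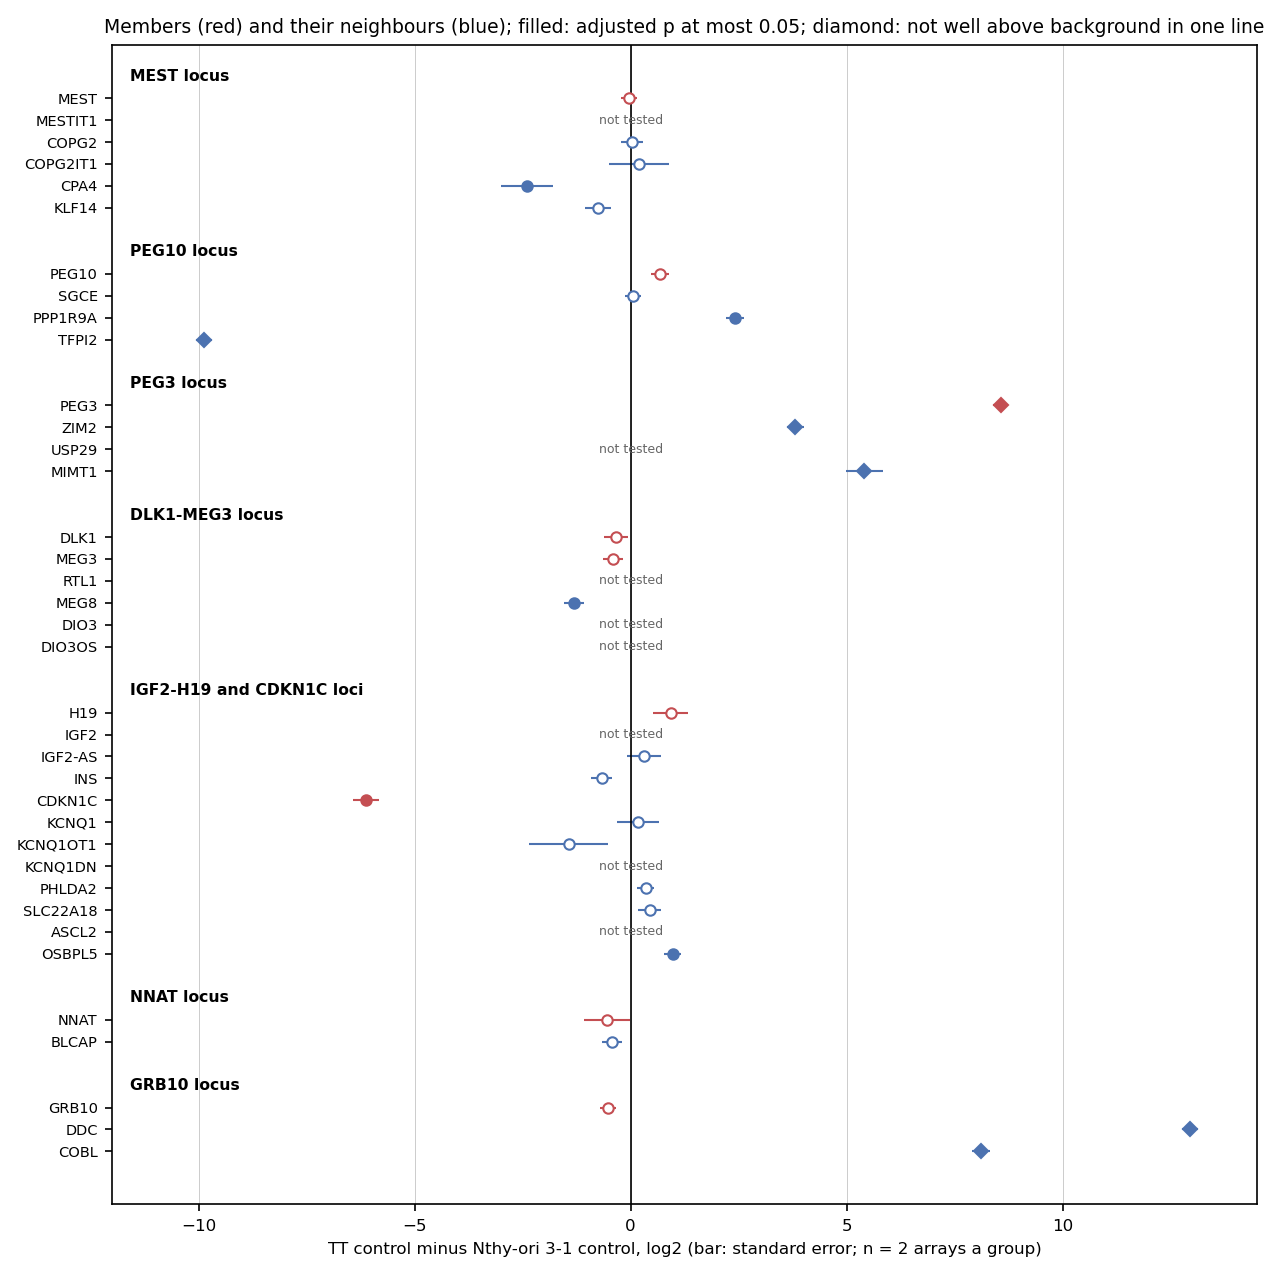
TT_CTL minus ORI_CTL in log2 signal (x axis) for the brightest probe of each member (red) and of its neighbours (blue), grouped by locus; bars are standard errors and filled points have an adjusted p of at most 0.05. PEG3, ZIM2 and MIMT1 lie together on the right, CDKN1C stands at -6.12 with its tested neighbours KCNQ1, KCNQ1OT1, PHLDA2, SLC22A18 and OSBPL5 between -1.43 and 0.97. Diamonds are genes not well above background on either control array of one line, such as DDC and COBL beside GRB10, whose plotted differences rest on background signal and are not fold estimates.

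Of the 27 neighbours on the array, 20 were tested between the lines, 6 were called higher in TT and 3 lower, beside 45.5% of all probes, with a median log2 difference of 0.17 against -0.01 over the brightest probes of all 23131 genes tested. With pre-miR-375, 16 were tested and 4 of 13 were called among probes above background on all 4 arrays (COPG2, CPA4 and PHLDA2 lower, TFPI2 higher by 0.67), beside 10.9% of all probes.

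Of 18 imprinted genes at other loci tested between the lines 6 were called higher in TT and 6 lower, beside 22.7% and 22.8% of all probes, with a median log2 difference of 0.33 against -0.01 over all genes. In the Prader-Willi region of chromosome 15 NDN, a growth suppressor of neurons, was at least 67.4-fold and MKRN3, a ubiquitin ligase gene, at least 19.8-fold higher in TT, and SNURF by 3.97 (log2, adjusted p = 0.000489). MAGEL2 of the same region, named after its value was seen, was called lower in TT (log2 difference -1.52, SE 0.25, adjusted p = 0.0108). Among the other genes called lower were HYMAI, at least 26.7-fold lower in TT, ATP10A, also on chromosome 15, at least 8.19-fold lower, and L3MBTL1 at -3.40 (log2, adjusted p = 0.00068). With pre-miR-375, UBE3A, a ubiquitin ligase gene of the Prader-Willi region that was named after its value was seen, differed by -1.54 (SE 0.14, adjusted p = 0.0785).

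The IGF axis is the signal route on which IGF2 and GRB10 act. Of 14 genes tested between the lines 3 were called higher in TT and 10 lower, beside 22.7% and 22.8% of all probes, with a median log2 difference of -2.27 against -0.01 over all genes. Among those called were the mRNA-binding protein IGF2BP1, at least 230-fold lower in TT, the binding proteins IGFBP7 (at least 295-fold lower) and IGFBP5 (at least 16.9-fold higher), IRS1, a docking protein of the insulin and IGF1 receptors (at least 54.4-fold lower), IGF2BP3 (log2 difference -7.99, adjusted p = 0.000217) and IGFBP4 (at least 33.9-fold lower). IGFBP3, well above background on all 4 control arrays and named after its value was seen, was 26.0-fold lower (log2 difference -4.70, adjusted p = 0.00045). In the comparisons of miR-375, named after their values were seen, IRS2 differed by -1.33 (log2, SE 0.11) and IRS1 by -1.07 (SE 0.11) with pre-miR-375 (adjusted p = 0.0785 and 0.0809), and IGFBP3 differed by 1.5 (SE 0.12, adjusted p = 0.341) with the antagomiR, from 5.08 and 4.68 to 6.47 and 6.28.

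Of the genes that keep and erase DNA methylation at imprints, 10 were tested with pre-miR-375. Among probes above background on all 4 arrays 3 of 9 were called, beside 10.9% of all probes. They were named after their values were seen. DNMT1, which copies methylation to new DNA strands, averaged 11.3 on the ORI_CTL arrays and 10.3 on the treated ones, without overlap (log2 difference -0.98, SE 0.12, adjusted p = 0.0827, and 0.0249 in the smaller set). UHRF1, which brings DNMT1 to those strands, read 12.22 and 12.29 against 10.94 and 10.86 (-1.35, SE 0.12, adjusted p = 0.0785, and 0.0184). TET2, which oxidizes methylated cytosine, differed by 1.42 (SE 0.19, adjusted p = 0.0863, and 0.0261). With the antagomiR DNMT1 differed by 0.21 (adjusted p = 0.470) and UHRF1 by 0.02 (adjusted p = 0.964). Between the lines 2 of 11 were called higher in TT and 5 lower, beside 22.7% and 22.8% of all probes, of which DNMT3L, a cofactor of new methylation, was at least 9.36-fold lower.

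The genes whose pattern over the 8 arrays was most like that of MEST were sought among 22190 probes well above background on every array, by the root mean square difference of values centred on each probe's mean. They were PTPMT1 (0.231), TIMM17A (0.279), HDDC2 (0.295), RBPJ (0.297) and CHPT1 (0.320, all in log2 units). Each was lower on the ORI_premiR-375 arrays by the difference of group means, from -1.45 (HDDC2) to -2.69 (RBPJ), and each was higher on the TT_AntagomiR-375 arrays, from 0.23 (TIMM17A) to 0.52 (RBPJ), less than the 0.75 of MEST. Since they were picked for likeness to MEST over these same arrays, both directions follow from the choice and are not a separate result. None of the 5 is another member of the list.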

How the data were processed

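RNA of the 8 samples was measured on SurePrint G3 8x60K arrays. For each array the authors deposited spot intensity from Feature Extraction 10.10.1.1 (with the background removed by the scanner software, small surrogates in place of dim values, and no scaling between arrays) with flags and probe positions on hg19. The authors also deposited a table of log2 values; its arrays share 1 distribution within a line, so it was read as log2 median intensity, quantile normalized within each line with limma, whose version is not given in the sources used here.

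Control spots and outlier spots (341 to 428 per array) were dropped, the log2 of the processed intensity was averaged over the spots of each probe, and limma 3.58.1 (R 4.3.3) quantile normalized all 8 arrays together. A probe was tested where it was well above background on at least 2 of the 4 arrays compared. lmFit and eBayes were run over all such probes. Each line had its slide as a block, since arrays of equal replicate number in a line share a slide; over probes above background on all 4 arrays, the deviations of same-numbered arrays correlated at 0.785 in Nthy-ori 3-1 and 0.330 in TT. The control comparison had no block. A call is a Benjamini-Hochberg adjusted p of at most 0.05. A fold against a group dim on both arrays is a bound, set against the lowest normalized signal well above background on each array. Such a bound holds for the main setting only, and the deposited values gave smaller differences for some of these probes. The steps were tested on simulated data.

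Of several probes the brightest over the 8 arrays stood for a gene. All members and their neighbours could be named, of each other list the 6 called genes with the largest change per comparison, and the 5 genes most like MEST. The members, lists and tests were chosen with earlier results of these data known. The lists were neighbours at the members' loci, imprinted genes at other loci, the IGF axis, genes of imprint and DNA methylation maintenance, and markers of C cells, follicular cells, leukocytes, endothelium and fibroblasts. Alternatives were other filters on dim probes, scaling to the 75th percentile, normexp with an offset of 50, the median intensity, the deposited log2 values, a trend in the prior, outlier spots kept, other blocks and fits, and each array or slide left out. The number of arrays limits the precision. The methods of the study give higher reagent concentrations and total RNA, where the labels give those used above and polyA RNA. Sequences of the miRNA and of promoters are from RefSeq on GRCh38.p14, whose promoter table held 4 of the 10 members.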

Additional observations from a re-analysis of the deposited data

How the results depend on the processing

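With pre-miR-375, 0 probes were called in the block fit and 0 without the replicate block or with either slide left out. Counts were 2632 of 24192 probes (10.9%) with probes well above background on all 4 arrays, and 4216 of 27722 with normexp. They were 3058 of 27722 with the median signal, 3321 of 27724 with the deposited values and 4854 of 27722 with a trend in the prior. With both lines fitted together the count was 2319 of 27716. In that order these held 2, 4, 3, 4, 5 and 2 member genes, where 9 were tested in the main setting. Each holds MEST, which was selected on these same arrays. The 5 include PEG3, whose probe had passed the filter through the treated arrays alone. With the antagomiR 0 of 30299 probes became 109 with normexp and 768 with the trend, the latter with 2 of 9 member genes tested. Between the controls 14133 probes became 13760 with the replicate block and 6821 to 15398 with 1 array left out, the lowest without TT_CTL replicate 1, and 6926 without TT_CTL replicate 2.

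Of 579 member values under the alternatives, 514 kept direction and call, 44 gained a call, 7 lost one and 14 changed direction. None of the 14 had been called. With pre-miR-375, leaving out a slide gave -0.26 to 0.048 for DLK1 (brighter probe), -0.037 to 0.42 for MEG3 probe 1, -0.52 to 0.33 for IGF2 and -0.18 to 0.59 for CDKN1C, and IGF2 was 0.0022 with 75th percentile scaling. With the antagomiR it gave -0.13 to 0.053 for MEG3 probe 1 and -0.22 to 0.82 for MEG3 probe 3, and the brighter DLK1 probe was -0.040 with the median signal and -0.047 with the deposited values. Between the controls, leaving out an array gave -0.082 to 0.0019 for MEST and -1.27 to 0.17 for NNAT, and the deposited values gave -0.26 for the dimmer DLK1 probe, -0.19 for MEG3 probe 3 and -0.0100 for H19 (first probe). The causes were not tested. Fits without a slide leave 1 array a group in the line compared. Their spread comes from the other line alone, so they hold no measure of spread in the line compared. Dim probes (IGF2, H19, PEG3 in Nthy-ori 3-1) are limited by signal over background.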
